A study of Mus musculus with 272 samples.

Results

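The genes described are those of the mouse translation initiation factors, taken as every symbol of the deposited table that begins with Eif1 to Eif6, without the Eif2ak kinases, the Eif4ebp and Eif4enif binding proteins, Eif1ad, the Eif4a3-like copies and pseudogenes. The rule gave 46 genes of the 15854 symbols in the table. By the complex they belong to, they were 4 genes of eIF1 and eIF1A, 4 of eIF2, 5 of its exchange factor eIF2B, 14 of eIF3, 12 of eIF4, 5 of eIF5, eIF5A, eIF5B and eIF6, and the 2 genes Eif2a and Eif2d, whose products can deliver initiator tRNA outside the eIF2 complex. The rule uses names only and no measured value.

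The study sequenced RNA from mouse oocytes and preimplantation embryos at 8 stages: germinal vesicle (GV) oocytes, which are arrested in prophase, metaphase II (MII) oocytes, which are mature and ready for fertilization, zygotes, 2-cell, 4-cell and 8-cell embryos, morulae and blastocysts. At each stage 4 pools of 20 oocytes or embryos gave transcriptome libraries, and 3 lysates of about 100 oocytes or embryos, made with cycloheximide to hold ribosomes on RNA, were spun through sucrose gradients and collected as 10 fractions, each a library of its own. The labels give no strain, genotype, age or treatment that sets the stages apart. Pools of a stage came from the same batch per the series' design text, so stage and batch cannot be told apart, and p-values measure the spread between pools. The captured RNA was polyadenylated, so the amount of a transcript and the length of its poly(A) tail cannot be told apart either, nor can fewer cells of a type and less RNA per cell in a blastocyst.

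Initiation begins when eIF2, carrying initiator tRNA and GTP, joins the small ribosomal subunit with eIF1, eIF1A, eIF3 and eIF5. The eIF4F complex (the cap-binding protein eIF4E, the scaffold eIF4G and the helicase eIF4A) brings this particle to the capped end of an mRNA, eIF5B then joins the subunits, and eIF2B recharges eIF2 with GTP. Fully grown oocytes stop transcription, and until the embryo's genome is switched on, which in the mouse occurs mainly at the 2-cell stage, stored transcripts are translated and degraded in turn.

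Values are CPM, the reads of a gene scaled to the library total, which are not scaled for gene length. Depth ran from 11.2 to 24.3 M reads in transcriptomes, and from 0.0102 to 43.2 M in gradient fractions, of which 15 of 240 were under 1 M, so low values in these fractions rest on few reads. All 5 oocyte markers (Gdf9, Bmp15, Zp2, Zp3, Mos) were present in the GV libraries, with a summed level of 16512 to 19153 CPM, the 4 markers of the 2-cell stage summed to 1628 to 2307 CPM in 2-cell libraries, and the 5 blastocyst markers (Cdx2, Krt8, Krt18, Nanog, Gata6) to 2334 to 2834 CPM in blastocysts. Of 8 markers of cumulus and granulosa cells 2 were in the table, and they summed to 1.96 to 5.61 CPM at the GV stage and at most 1.95 CPM at each later stage. The share of CPM taken by 18S ribosomal RNA rose from 0.0143% ± 0.00180 (SD, n = 4) in GV oocytes to 6.95% ± 3.14 (SD, n = 4) in blastocysts, and its part in the levels was not tested.

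Initiation factor transcripts took a larger share of the reads from the 4-cell stage on than before it. The summed level of the 46 genes was 8715 ± 177 CPM (SD, n = 4) in GV oocytes, 8438 ± 455 in MII oocytes, 9271 ± 262 in zygotes and 10109 ± 721 in 2-cell embryos. It was 32176 ± 1196 CPM in 4-cell embryos, 31469 ± 740 in 8-cell embryos, 26513 ± 2010 in morulae and 19830 ± 1121 in blastocysts. The lowest 4-cell library (31031 CPM) lay far above the highest 2-cell library (11128 CPM). A near-constant sum up to the 2-cell stage hid large and opposite changes of single genes, as the heat map of mean levels shows. A total of 44 of the 46 genes changed at 1 or more of the 7 transitions between consecutive stages. The other 2, Eif2a and Eif5a, passed the test at none, although Eif5a, whose product helps ribosomes through difficult peptide bonds, had 442 ± 28.3 CPM in GV oocytes and 2983 ± 360 CPM in blastocysts (SD, n = 4). The share of all genes that changed at 1 or more transitions was not counted. From the 2-cell to the 4-cell embryo alone, 31.8% of all genes rose and 32.9% fell.

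**Figure D1:**
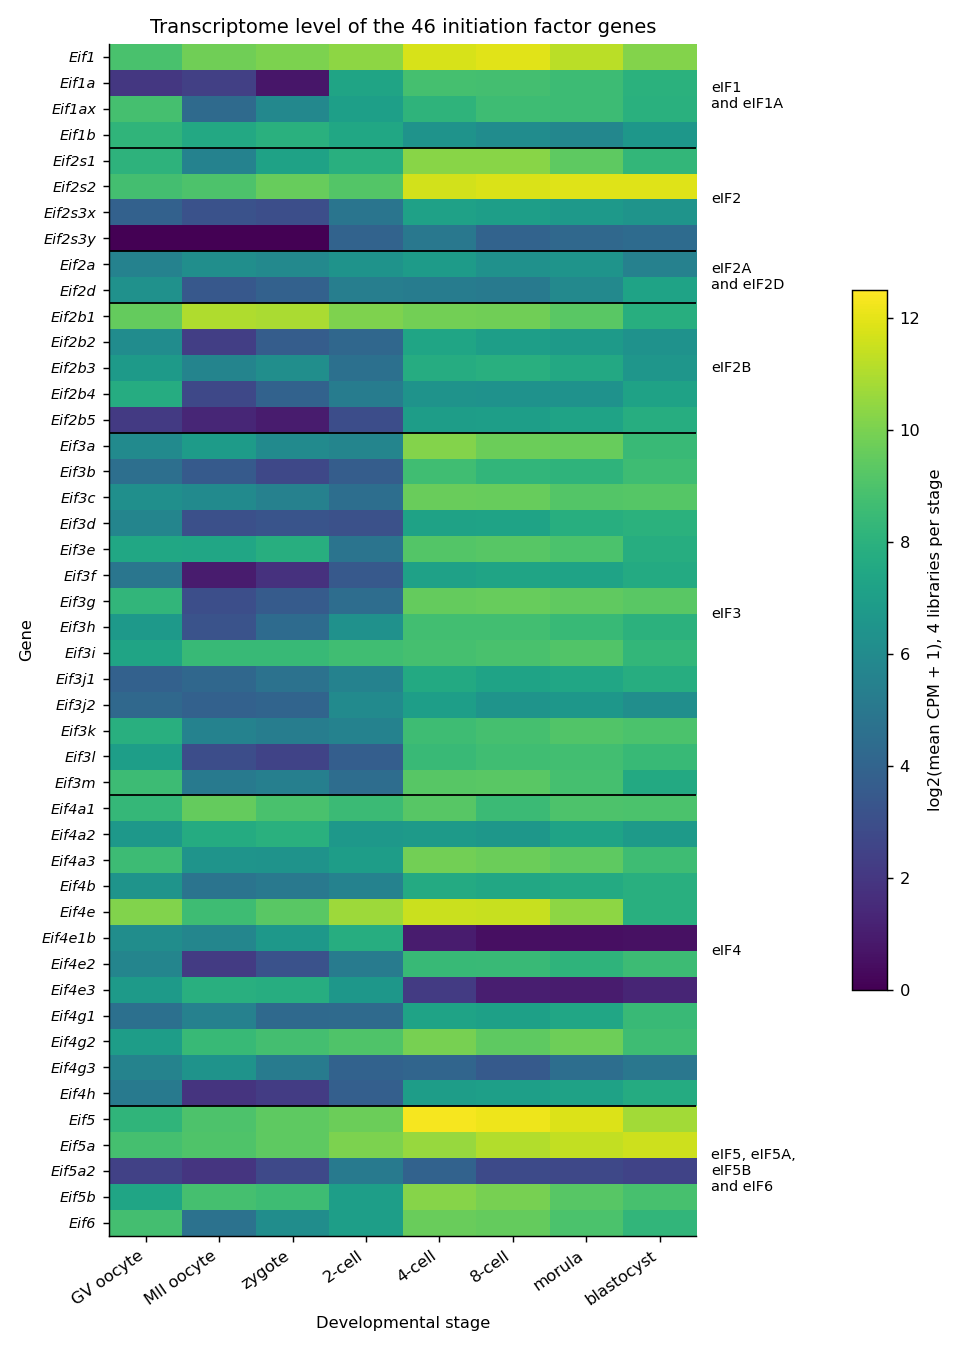
Mean transcriptome level of each of the 46 genes (rows, grouped by complex) at the 8 stages (columns), as log2(mean CPM + 1) over 4 libraries per stage. Most eIF3 and eIF2B rows are darkest from the MII oocyte to the 2-cell embryo and bright from the 4-cell embryo on, while Eif4e1b and Eif4e3 go the other way.

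From the GV to the MII oocyte, a step without transcription, 7 of the 46 genes rose and 20 fell. A gene was called when limma's test, adjusted by Benjamini-Hochberg over all 14642 genes tested, gave a p under 0.05 and the change was at least 1 on the log2(CPM + 1) scale. By the same rule 9.11% of all genes rose and 25.3% fell. The median change of the 46 genes was -0.60 and that of all genes was -0.11. Quantile normalization called 11 higher and 18 lower and moved the median of all genes by 0.50. edgeR on recovered reads, which has another scaling and another model, called 13 higher and 18 lower and moved that median by 0.48. Over all 14642 genes, in either direction, quantile normalization called 5812 and edgeR 7214. No called gene changed direction under either.

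Of the 14 eIF3 genes 8 fell and 1 rose (median change -1.71), of the 12 eIF4 genes 5 fell and 4 rose, and of the 5 eIF2B genes 3 fell and 1 rose. The summed level of the eIF2B genes nonetheless went from 1134 ± 16.4 to 2124 ± 206 CPM (SD, n = 4), since the gene that rose, Eif2b1, was the highest of them. Eif3g, an RNA-binding subunit of eIF3, had 291, 291, 299.8 and 311 CPM in GV libraries and 4.28, 5.44, 8.76 and 9.87 CPM in MII libraries. The 2 groups were far apart, and the change was -5.27 (SE 0.17, adjusted p = 1.47e-24 by limma). Eif2b4, the delta subunit of eIF2B, had 195, 206, 228 and 233 CPM before and 4.86, 5.52, 5.72 and 6.003 CPM after (change -5.05, SE 0.17, adjusted p = 8.89e-24 by limma). Eif1ax, which encodes the scanning factor eIF1A, went from 451 ± 26.2 to 19.2 ± 5.61 CPM (SD, n = 4). Eif6, which keeps the ribosomal subunits apart, fell from 428 ± 21.5 to 25.1 ± 6.92 CPM, and Eif2s1, the alpha subunit of eIF2 that stress kinases phosphorylate, from 269 ± 14.3 to 46.2 ± 5.46 CPM. Among eIF4 genes the 5 that fell were Eif4a3, Eif4b, Eif4e, Eif4e2 and Eif4h.

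The 7 genes that rose were Eif2b1, Eif5b, Eif4g2, Eif4a1, Eif3i, Eif4e3 and Eif4a2, 1 each of eIF2B, eIF5B and eIF3 and 4 of eIF4. Eif2b1, the alpha subunit of eIF2B, had 709, 721, 753 and 763 CPM in GV libraries and 1889, 1981, 2031 and 2359 CPM in MII libraries, a change of 1.48 (SE 0.13, adjusted p = 2.99e-12 by limma). Eif5b had 145, 146, 167 and 185 CPM before and 432, 451, 453 and 458 CPM after, also a change of 1.48 (SE 0.13, adjusted p = 2.87e-12 by limma). Eif4g2, a scaffold that lacks the eIF4E-binding part, had 121 ± 11.4 and then 341 ± 37.1 CPM. In each of these 3 genes every MII library lay above every GV library. Eif4a2, a paralog of the helicase gene Eif4a1, was at 98.8 ± 9.23 and 203 ± 32.1 CPM, and its change of 1.02 fell just under 1 without GV replicate D (0.96), MII replicate B (0.95) or MII replicate D (0.97). Eif3b, called lower with a change of -1.04, likewise came to -0.99 without GV replicate B and -0.89 without MII replicate C.

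At fertilization, from the MII oocyte to the zygote, 6 genes rose (background 5.79%) and 3 fell (background 4.48%). Eif2s1 rose most, from 39.2, 46.5, 46.5 and 52.6 CPM to 133, 138, 141 and 166 CPM (change 1.63, SE 0.16, adjusted p = 8.09e-10 by limma). Eif1ax had 11.3, 19.9, 21.6 and 24.2 CPM and then 46.3, 55.5, 61.0 and 61.4 CPM (change 1.54, SE 0.15, adjusted p = 8.63e-10 by limma). Neither gene's libraries overlapped between the stages. The other genes that rose were Eif6, Eif2b2, Eif2b4 and Eif3h, and these 6 had all fallen at the step before. How often a fall came before a rise over all genes was not counted. Eif1a, a second eIF1A gene, had 2.59, 3.38, 3.70 and 6.86 CPM in MII oocytes and 0.0986, 0.711, 0.722 and 1.28 CPM in zygotes (change -1.57, SE 0.22, adjusted p = 9.91e-07 by limma). The eIF4G scaffolds Eif4g3 (85.0 ± 18.3 to 35.5 ± 4.46 CPM) and Eif4g1 (44.3 ± 11.9 to 18.4 ± 3.0 CPM) fell with it.

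From the zygote to the 2-cell embryo 16 genes rose (background 25.2%) and 8 fell (background 8.71%). With edgeR on recovered reads, which moved the median of all genes by -0.39, 11 rose and 9 fell. Over all genes edgeR called 5843 of 14642 in either direction. Eif1a rose most, from 0.704 ± 0.484 CPM to 124, 136, 148 and 210 CPM in the 4 libraries, a change of 6.53 (SE 0.22, adjusted p = 1.38e-23 by limma). Eif2s3y, the Y-linked copy of the eIF2 gamma subunit gene, had 0 reads in all 12 GV, MII and zygote libraries and 4.04, 16.3, 16.9 and 21.3 CPM in 2-cell libraries. Against a floor of 3 reads per zygote library (0.158 CPM) the 2-cell mean of 14.7 CPM was at least 92.8-fold higher, and this covers counting error only. The genes that fell were led by Eif3e, which had 180, 203, 246 and 279 CPM in zygotes and 21.04, 23.1, 25.0 and 38.9 CPM in 2-cell embryos (change -3.05, SE 0.22, adjusted p = 2.80e-14 by limma). Eif5b had 363, 393, 406 and 432 CPM in zygotes and 107, 111, 118 and 168 CPM in 2-cell embryos (change -1.68, SE 0.13, adjusted p = 1.50e-13 by limma), which put it back below its GV mean of 161 CPM. The other genes that fell were Eif2b3, Eif4a2, Eif4g3, Eif4e3, Eif3c and Eif3m. The change of Eif3m, -1.03, came to -0.78 without 2-cell library E, -0.93 without 2-cell library H and -0.94 without zygote replicate C, and that of Eif3c, -1.03, to -0.86 without 2-cell library F.

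The largest step was that from the 2-cell to the 4-cell embryo, where 32 of the 46 genes rose and 4 fell. Over all genes 31.8% rose and 32.9% fell. The median change was 2.35. The rise was not shared by all complexes. Of the 12 eIF4 genes 5 rose and 2 fell, with a median change of 0.89, and Eif2a and Eif2d were not called. Of the 4 genes of eIF1 and eIF1A 3 rose and 1 fell, and of the 5 of eIF5, eIF5A, eIF5B and eIF6 3 rose and 1 fell. All 4 eIF2 genes, 13 of 14 eIF3 genes and 4 of 5 eIF2B genes rose. The exceptions were Eif3i and Eif2b1, which were already high: Eif3i was at 408 ± 46.4 and 446 ± 49.2 CPM and Eif2b1 at 1096 ± 127 and 909.9 ± 99.6 CPM in 2-cell and 4-cell embryos. Eif3c, a core eIF3 subunit, had 14.6, 22.8, 23.8 and 26.0 CPM in 2-cell libraries and 736, 754, 788 and 961 CPM in 4-cell libraries, a change of 5.17 (SE 0.14, adjusted p = 9.15e-27 by limma). Eif3g had 17.2, 18.6, 23.8 and 24.3 CPM and then 706, 734, 772 and 820 CPM, a change of 5.12 (SE 0.17, adjusted p = 7.81e-25 by limma). Eif5, which triggers GTP hydrolysis on eIF2 and had the highest mean CPM of the 46 genes in 4-cell embryos, rose from 825 ± 43.7 to 5167 ± 668 CPM (SD, n = 4). Of the 20 genes that had fallen between the GV and the MII oocyte, 18 rose here, and the other two were Eif2d and Eif4e. Of the 7 that had risen then, 1 rose here (Eif5b) and 1 fell (Eif4e3). The shares of all genes with such pairs of calls were not counted. Taken singly, 25.3% of all genes fell from the GV to the MII oocyte and 31.8% rose here.

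The 4 genes that fell were Eif4e1b, Eif4e3, Eif5a2 and Eif1b. Eif4e1b, an oocyte-restricted relative of the cap-binding protein gene, had 157, 158, 176 and 377 CPM in 2-cell libraries and 0.206, 0.911, 1.03 and 1.66 CPM in 4-cell libraries, a change of -6.75 (SE 0.31, adjusted p = 1.48e-20 by limma). Eif4e3 had 78.4, 93.6, 94.3 and 127 CPM and then 2.09, 3.34, 3.82 and 4.59 CPM (change -4.49, SE 0.22, adjusted p = 6.10e-20 by limma). The libraries of the 2 stages did not overlap in either gene. The calls of Eif1b (-1.04), Eif3j2 (1.00), Eif1ax (1.07) and Eif2s3y (1.15) rested on single libraries. Eif1b came to -0.92 without 2-cell library E, -0.95 without 4-cell replicate C and -0.99 without 4-cell replicate D, and Eif1ax to 0.98 without 4-cell replicate A. Eif3j2 came to 0.98 without 2-cell library E, 0.96 without 2-cell library F, 0.91 without 4-cell replicate C and 0.87 without 4-cell replicate D, and Eif2s3y to 0.67 without 2-cell library E and 0.92 without 4-cell replicate C.

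Promoters of these genes were searched for the letters CCGGAAG on either strand, which hold the core of sites bound by ETS-family factors, in windows of 250 bases before to 50 bases after a start site (RefSeq, GRCm38.p6). Of the 46 genes 36 had such a window, and 12 of them (33.3%) held the motif, against 18.6% of 11180 tested genes with a window. It was present in 5 of 10 eIF3 genes, 2 of 4 eIF2B genes, 0 of 4 eIF2 genes and 1 of 9 eIF4 genes. Of eIF1 and eIF1A 2 of 3 genes held it, of eIF5, eIF5A, eIF5B and eIF6 2 of 4, and of Eif2a and Eif2d 0 of 2. The 4 eIF2 genes, without the motif, all rose at the 4-cell stage too. The stretches below are those of eIF3 and eIF2B, of which most genes rose at the 4-cell stage, with the motif or its reverse complement in capitals, each read 5′ to 3′ on the gene's strand.
Eif3c, chr7:126566383-126566412, minus strand: caaccttttcctCTTCCGGcgtcgtgcctg
Eif3c, chr7:126566417-126566446, minus strand: cattctttggtgCTTCCGGgaagtgacgcc
Eif3d, chr15:77970877-77970906, minus strand: agctgtgacacaCTTCCGGttgtgtctcac
Eif3g, chr9:20898617-20898646, minus strand: gcggccgcggcaCCGGAAGcctcttctact
Eif3l, chr15:79075176-79075205, plus strand: ggctgggcgggaCTTCCGGtccggccaagc
Eif3m, chr2:105017065-105017094, minus strand: tctgtggctgacCCGGAAGcggttgtgcgt
Eif2b2, chr12:85219485-85219510, plus strand: acctctctcggcCCGGAAGtgaaaca
Eif2b4, chr5:31193121-31193150, minus strand: acccagtgcacgCCGGAAGttgtagtccgc
In the eIF3 genes the first motif base lay at -70 to -34 from the start site, and in Eif3c there were 2 motifs. In Eif2b2 and Eif2b4 it lay 16 bases and 1 base past the start site. Of the 12 members with the motif 9 rose from the 2-cell to the 4-cell embryo and 2 fell, Eif1b and Eif5a2, whose stretches are not printed above. Of the 24 without it 17 rose and 0 fell. Among all genes with a window, 22.5% of those with the motif and 35.7% of those without fell at that step. Over all genes with a window, 43.0% of those with the motif and 28.9% of those without rose at that step, and from the GV to the MII oocyte 33.3% and 24.2% fell. Among the members 8 of 12 with the motif and 9 of 24 without fell between the GV and the MII oocyte. A match describes the letters of the window and is not a measured site.

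After the 4-cell stage few members changed until the blastocyst. From the 4-cell to the 8-cell embryo none of the 46 rose (background 0.451%) and 2 fell (background 2.14%), with 13 past an unadjusted p of 0.05, 2 called by edgeR and none under quantile normalization, which moved the median of all genes by 0.15. Over all 14642 genes edgeR called 568 and quantile normalization 269. The 2 that fell were Eif5a2 (14.2 ± 1.92 to 6.03 ± 2.87 CPM) and Eif4e3 (3.46 ± 1.05 to 1.07 ± 0.551 CPM), both at low levels. The change of Eif4e3, -1.11, came to -0.99 without 4-cell replicate B and -0.9998 without 8-cell replicate C. From the 8-cell embryo to the morula none rose (background 8.18%) and 1 fell (background 3.7%), with 20 past an unadjusted p of 0.05 and 1 higher and 1 lower by edgeR. Over all genes edgeR called 2369 of 14642. The share of all genes past an unadjusted p of 0.05 was not counted at either step. The gene that fell was Eif4e, with 2365, 2418, 2650 and 3600 CPM in 8-cell libraries and 787, 1321, 1471 and 1734 CPM in morulae. Its change was -1.09 (SE 0.17, adjusted p = 6.12e-06 by limma), and it came to -0.95 without 8-cell replicate D and -0.86 without morula replicate A.

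From the morula to the blastocyst 2 genes rose (background 18.8%) and 9 fell (background 7.97%). edgeR on recovered reads called 1 higher and 14 lower, and moved the median of all genes by -0.26. Over all genes it called 4597 of 14642 in either direction. Eif4e fell further, to 160, 241, 247 and 283 CPM (change -2.48, SE 0.17, adjusted p = 2.86e-14 by limma), so that its blastocyst mean of 233 CPM was below that of every other stage. Eif2b1 had 475, 597, 664 and 767 CPM in morulae and 177, 234, 235 and 262 CPM in blastocysts (change -1.45, SE 0.13, adjusted p = 1.96e-11 by limma). The genes that rose were Eif2d, with 47.5, 55.6, 60.9 and 64.8 CPM and then 131, 146, 148 and 184 CPM (change 1.40, SE 0.20, adjusted p = 2.66e-07 by limma), and Eif4g1, with 138, 164, 170 and 191 CPM and then 330, 333, 334 and 425 CPM (change 1.10, SE 0.20, adjusted p = 2.56e-05 by limma). The other 7 that fell (Eif3m, Eif4g2, Eif5, Eif3a, Eif3e, Eif2s1 and Eif1) changed by -1.17 to -1.02. Of them Eif5 came to -0.98 without blastocyst replicate A and Eif3a to -0.93 without morula replicate B. Eif1 came to -0.95 to -0.97 when either of blastocyst replicates A and B or morula replicates C and D was left out, Eif2s1 to -0.92 to -0.97 without blastocyst replicate C or morula replicate B or C, and Eif3e to -0.92 to -0.97 without blastocyst replicate C or morula replicate B, C or D.

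The cap-binding genes changed places along development. Compared per kb of transcript, and as shares of the summed level of Eif4e, Eif4e1b, Eif4e2 and Eif4e3 in each library, Eif4e gave 60.6% in GV oocytes, 33.2% in MII oocytes and 82.6% in 4-cell embryos, and 26.1% in blastocysts. Eif4e3, whose protein binds the cap without the usual aromatic pair, gave 40.2% in MII oocytes and Eif4e1b 39.5% in 2-cell embryos, and from the 4-cell stage each gave at most 0.32%. Eif4e2, whose protein (4EHP) binds caps but not eIF4G and represses translation, gave 0.5% in MII oocytes and 73.3% in blastocysts. Its level was 3.52 ± 0.971 CPM in MII oocytes, 7.75 ± 0.336 in zygotes, 35.2 ± 4.14 in 2-cell embryos and 345 ± 42.3 in 4-cell embryos (SD, n = 4), and it passed the test as higher at the last 2 of these steps. In blastocysts its 4 libraries (325 to 420 CPM) lay above those of Eif4e (160 to 283 CPM), though CPM is not scaled for length. The 2-cell level of Eif4e1b rested on library E, at 377 CPM against 157 to 176 CPM in the other three, and its call as higher from the zygote (change 1.08) came to 0.78 without that library, 0.98 without zygote replicate C and 0.89 without zygote replicate D.

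**Figure D2:**
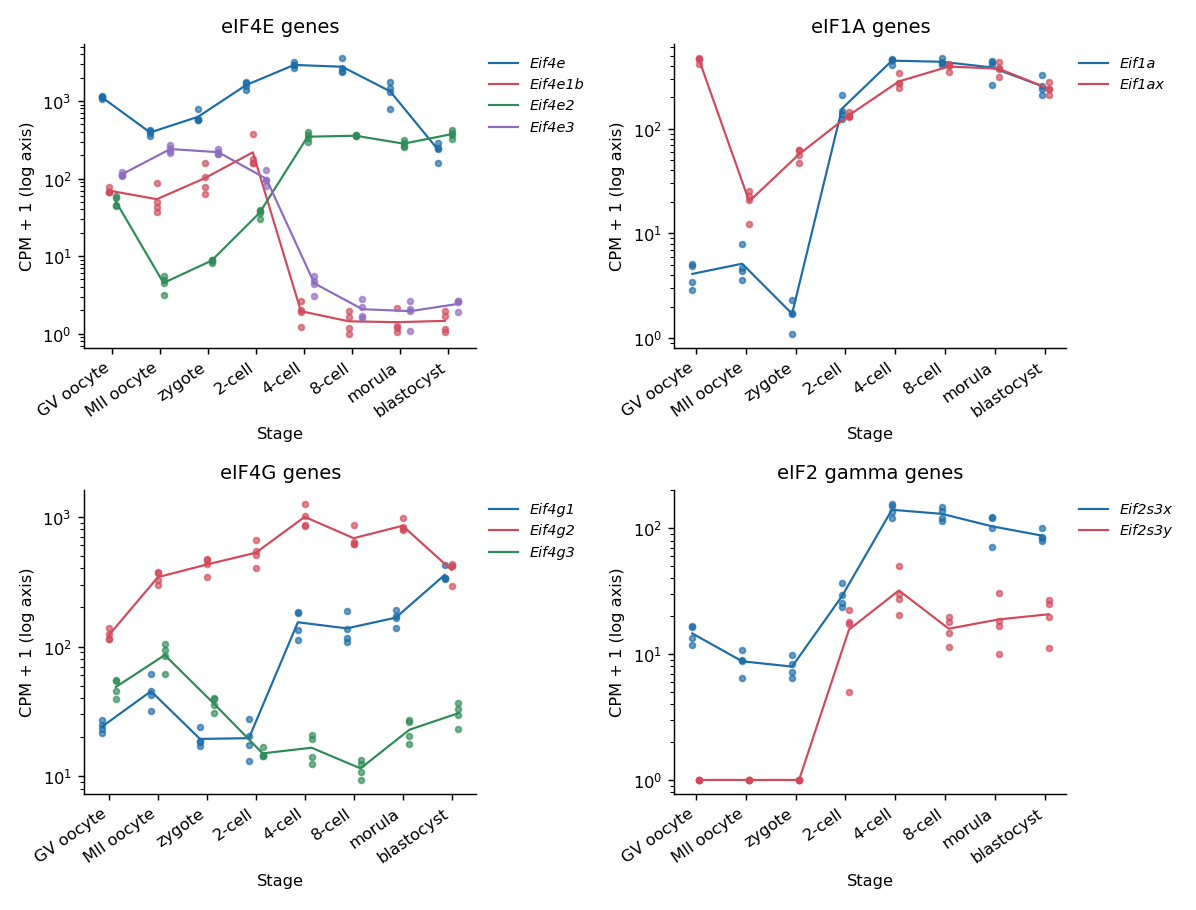
Levels of the eIF4E, eIF1A, eIF4G and eIF2 gamma genes at the 8 stages, as CPM + 1 on a log axis, with 1 point per library (4 per stage) and lines through the means. At the 4-cell stage Eif4e1b drops to 0.206 to 1.66 CPM and Eif4e3 to 2.09 to 4.59 CPM, Eif1a climbs at the 2-cell stage, and Eif2s3y is at 0 until then.

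Other paralogs also exchanged places. Eif1ax made up 98.4% of the eIF1A level per kb in GV oocytes and Eif1a 1.6%, whereas in 4-cell embryos Eif1a made up 79.1%. In zygotes, Eif1ax stood at 46.3 to 61.4 CPM and Eif1a at 0.0986 to 1.28 CPM, and in 4-cell embryos at 246 to 337 and 409 to 468 CPM. The eIF4G scaffold Eif4g3 fell from 31.8% of the eIF4G level per kb in GV oocytes to 2.0% in 4-cell embryos, and Eif4g1 rose from 5.3% in zygotes to 53.9% in blastocysts. Eif4g2 was the largest of the 3 from GV oocytes (53.7%) to morulae (76.0%), and gave 41.3% in blastocysts. Eif1, which guards start codon choice, gave 56.2% of the pair with Eif1b in GV oocytes and 97.8% in 8-cell embryos. Eif4a1 gave 57.1% to 79.4% of the pair with Eif4a2 at every stage, and Eif5a at least 99.04% of the pair with Eif5a2, which had its highest mean in 2-cell embryos, at 31.8, 32.8, 34.0 and 34.2 CPM. The split between Eif3j1 and Eif3j2, between Eif1a and Eif1ax and between Eif2s3x and Eif2s3y is uncertain, since the coding sequences of each pair are close and reads could be assigned to either. In GV oocytes, MII oocytes and zygotes, Eif2s3x was at 3.73, 2.13 and 1.91 CPM per kb. Eif2s3y had 0 reads there, so no Eif2s3x reads were counted for it at these stages. Whether Eif2s3y reads were counted for Eif2s3x in embryos was not tested.

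Within eIF2B and eIF3 the levels of the subunit genes were less even up to the zygote than from the 4-cell stage on. Per kb of transcript, the highest and the lowest of the 5 eIF2B genes differed 273-fold in GV oocytes, 1683-fold in MII oocytes, 2624-fold in zygotes, 9.27-fold in 4-cell embryos and 2.22-fold in blastocysts. Eif2b1 was the highest at all 8 stages. It reached 1026 CPM per kb in MII oocytes, where Eif2b5, the catalytic epsilon subunit, was at 0.610 CPM per kb. Eif2b5 had 0.985, 1.45, 1.69 and 2.10 CPM in MII libraries, 102, 118, 136 and 145 CPM in 4-cell libraries and 175, 228, 230 and 250 CPM in blastocyst libraries. Without Eif2b1 the other 4 genes differed 90.9-fold in GV oocytes, 50.7-fold in MII oocytes, 126-fold in zygotes and 1.70-fold in blastocysts, so the rise of the ratio from the GV to the MII oocyte was seen only with Eif2b1 included.

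**Figure D3:**
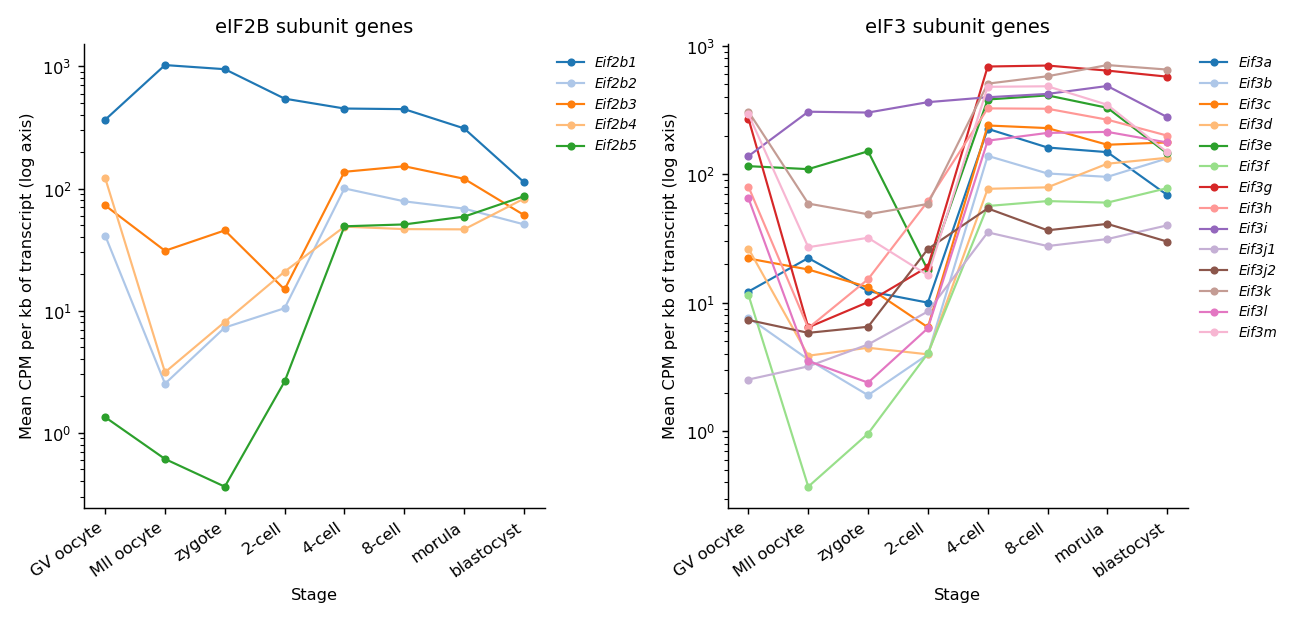
Mean CPM per kb of transcript (log axis, 4 libraries per stage) of the 5 eIF2B genes and the 14 eIF3 genes at the 8 stages. Eif2b1 and Eif3i stay high from the MII oocyte to the 2-cell embryo while most of their partners are low, and the spread narrows from the 4-cell stage.

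Among the 14 eIF3 genes the same ratio was 122-fold at the GV stage and 826-fold at the MII stage, and then 91.7-fold at the 2-cell and 19.5-fold at the 4-cell stage. The lowest gene at the GV and 4-cell stages was Eif3j1. Its split from Eif3j2 is uncertain, so the ratios of these stages rest on that split. Eif3i, a peripheral subunit, was the highest per kb in MII oocytes, zygotes and 2-cell embryos, with 301, 314, 366 and 396 CPM in MII libraries. Eif3f was the lowest in MII oocytes, with 0.704, 0.789, 0.845 and 1.39 CPM. The summed level of the eIF3 genes was 1741 ± 76.7 CPM in GV oocytes, 837 ± 35.9 in MII oocytes, 826 ± 60.4 in 2-cell embryos and 6542 ± 377 in 4-cell embryos (SD, n = 4). Of the eIF2 genes, Eif2s2 (beta) exceeded Eif2s3x (gamma) 45.7-fold per kb in GV oocytes and 63.6-fold in blastocysts, so these subunit transcripts stayed uneven at both ends. Eif2s3y, which also encodes gamma, was left out of these ratios. It was at 0 CPM per kb in GV oocytes and at 10.7 in blastocysts, where Eif2s3x was at 23.7. The 2 ratios therefore do not show a wider gap to all gamma transcripts in blastocysts. Lengths were those of 1 GENCODE transcript per gene, and another isoform would move these ratios.

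The position of the transcripts in the gradient was compared as the mean CPM of fractions 6 to 10, taken as the heavy side where transcripts with several ribosomes lie, minus that of fractions 1 to 5, the light side. The labels number the fractions without saying which end of the gradient fraction 1 is, so the direction of every heavy or light result rests on the usual order, from the top of the gradient down. CPM are relative to the fraction they come from, so the difference gives where a gene lies relative to other genes and not how much RNA a fraction held. The alternative with edgeR took the summed reads of a side's fractions instead. Deep fractions therefore weigh more in it than in the mean CPM, and shallow ones less. The spread was uneven between stages: the median standard error of the members' heavy-light difference was 0.41 at the GV stage and 0.40 at the MII stage, rose to 0.94 at the 2-cell and 1.09 at the 4-cell stage and was 0.33 for blastocysts, on the log2 scale. In 2-cell embryos the median member was at 0 in 25.0% of the 30 fraction libraries, against 0% in MII oocytes, so values there rest on scattered fractions.

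In MII oocytes 6 of the 46 genes were on the heavy side (background 8.86%) and 4 on the light side (background 6.33%). Eif5b, the subunit-joining factor, was the most heavy, with 229, 113 and 202 CPM on the heavy side of gradients A, B and C and 3.45, 2.26 and 1.19 CPM on the light side. The 2 sides did not overlap, and the difference was 5.78 (SE 0.51, adjusted p = 6.19e-11 by limma). Eif3a, the largest eIF3 subunit, had 122, 67.2 and 91.8 CPM against 7.14, 3.95 and 1.00 CPM (difference 4.41, SE 0.66, adjusted p = 3.98e-06 by limma). Eif4g2 had 248, 308 and 243 CPM against 67.9, 18.6 and 29.6 CPM (difference 2.94, SE 0.49, adjusted p = 2.53e-05 by limma). These 3 calls held under all 12 alternatives, and Eif4a2, Eif4e3 and Eif5 were the other heavy genes. The light genes were Eif3g, with 29.3, 32.3 and 25.4 CPM on the heavy and 87.5, 134 and 148 CPM on the light side (difference -2.02, SE 0.30, adjusted p = 2.90e-06 by limma), Eif3h, with 29.3, 31.9 and 21.5 against 82.9, 89.8 and 96.7 CPM (difference -1.68, SE 0.38, adjusted p = 0.00129 by limma), Eif4e1b and Eif2d. Under edgeR Eif5b, Eif3a and Eif4g2 of these 10 were called, all heavy. Without weights 4 members were called, and under quantile normalization 6 were heavy and 7 light. Over all genes edgeR called 165 of 15043, analysis without weights 490 of 15172 and quantile normalization 2682 of 15172. Without single gradients the differences of Eif4e1b (-1.22 to -1.70 without gradient A, B or C), Eif4e3 (1.67 to 1.88 without B or C), Eif5 (0.95 without C) and Eif2d (-1.14 to -1.36 without B or C) no longer passed.

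In GV oocytes 2 were heavy (background 3.3%) and 2 light (background 0.811%). Eif5b had 42.7, 48.4 and 70.9 CPM on the heavy and 7.26, 2.50 and 18.5 CPM on the light side (difference 2.70, SE 0.51, adjusted p = 0.00168 by limma), which came to 2.14 and an adjusted p of 0.101 without gradient B. Eif5 had 140, 186 and 159 CPM against 61.7, 73.8 and 103 CPM (difference 1.04, SE 0.30, adjusted p = 0.0373 by limma). Eif3g had 109, 72.8 and 76.2 CPM against 360, 235 and 412 CPM (difference -1.93, SE 0.30, adjusted p = 1.55e-04 by limma), and Eif3h was at 38.7, 70.7 and 55.1 against 107, 174 and 127 CPM (difference -1.31, SE 0.38, adjusted p = 0.0395 by limma). The calls of Eif5 and Eif3h were lost without any 1 of the 3 gradients. None of the 4 was called by edgeR or without weights for the stages' spread, and quantile normalization called 2 heavy and 5 light. Over all genes edgeR called 8 of 15043, analysis without weights 11 of 15172 and quantile normalization 823 of 15172. Without fraction 1, whose GV libraries held as few as 0.0102 M reads, 10 members were called, beside 1854 of 15047 over all genes.

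The change of the heavy-light difference from the GV to the MII oocyte was called for 3 members, in the heavy direction, against 1.82% of all genes in either direction. Eif4a2 changed by 3.52 (SE 0.91, adjusted p = 0.0278 by limma), Eif3a by 3.40 (SE 0.93, adjusted p = 0.0457) and Eif5b by 3.08 (SE 0.72, adjusted p = 0.0126). In fraction 1 of GV gradient A, the shallowest library, Eif4a2 stood at 382 CPM and Eif3a at 191 CPM, above all their other GV fractions. In that library 1 read was worth 95.5 CPM, so both values rest on a handful of reads. Without that gradient the change of Eif4a2 was 1.86 (adjusted p = 0.387), that of Eif3a 2.13 (adjusted p = 0.390) and that of Eif5b 2.93 (adjusted p = 0.0693). With the gradient letter as a block the adjusted p of Eif4a2 was 0.0523. No change was called by edgeR or without weights for any member, and quantile normalization called 4 towards the heavy and 1 towards the light side. Over all genes these 3 settings called 6 of 15043, 28 of 15172 and 382 of 15172. The block added Eif2b1 (adjusted p = 0.0435) and Eif1ax (adjusted p = 0.0474, towards the light side).

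**Figure D4:**
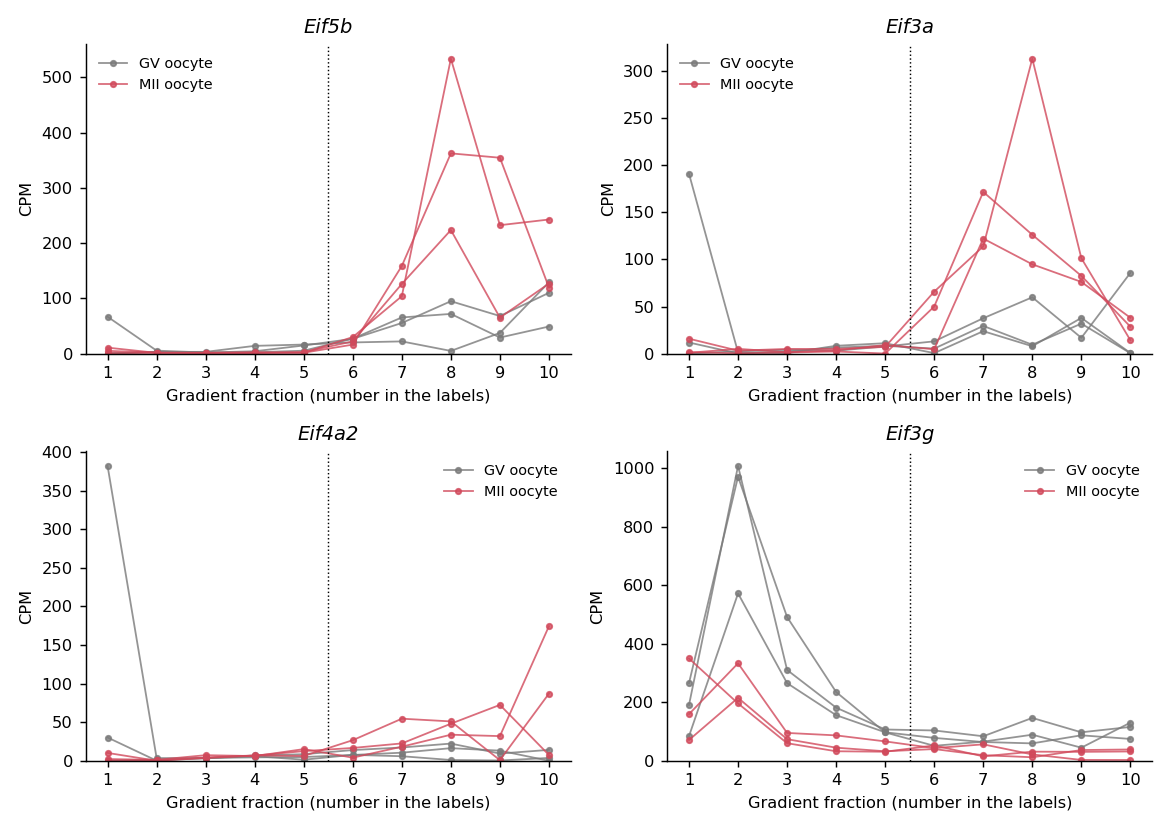
CPM of Eif5b, Eif3a, Eif4a2 and Eif3g in fractions 1 to 10 of the 3 GV gradients (grey) and the 3 MII gradients (red), 1 line per gradient, with the dotted line between the light and the heavy side. Eif5b peaks at 224 to 534 CPM in fraction 8 of the MII gradients, single high points of Eif3a and Eif4a2 stand in fraction 1 of a GV gradient, and Eif3g peaks in fraction 2 in all GV gradients.

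In zygotes 9 genes were heavy (background 9.95%) and 6 light (background 5.06%). The heavy genes included all 6 of the MII stage, joined by Eif4e, Eif2b1 and Eif3e. Eif4g2 had 348, 224 and 407 CPM on the heavy and 32.2, 21.2 and 25.9 CPM on the light side (difference 3.55, SE 0.51, adjusted p = 2.84e-06 by limma). Eif5b had 86.1, 91.1 and 163 CPM against 14.04, 13.98 and 8.84 CPM (difference 3.07, SE 0.52, adjusted p = 4.59e-05 by limma). Eif3g was the most light, with 5.72, 6.09 and 2.66 CPM against 45.3, 45.3 and 54.8 CPM (difference -3.14, SE 0.31, adjusted p = 1.07e-09 by limma), and Eif2b5, at 0.0455, 0 and 0 against 3.96, 5.03 and 3.47 CPM, was next (difference -2.33, SE 0.64, adjusted p = 0.00952 by limma). The calls of Eif4g2, Eif5 and Eif3g held under all 12 alternatives. Most of the 15 calls were lost with edgeR, which called 2 heavy and 1 light, and without weights, where 4 were called. Over all genes edgeR called 114 of 15043 and analysis without weights 456 of 15172. The difference of Eif3f (-1.07) came to -0.41 without gradient C, and with the gradient letter as a block its adjusted p was 0.0606. Those of Eif3h, Eif3e, Eif3d, Eif2b5, Eif2d and Eif3a were also lost without 1 or more single gradients, Eif3h going to -0.80 without gradient B and Eif3a to 1.73 without gradient B. No member's change from the MII oocyte was called (background 0.402%), with 9 of 46 past an unadjusted p of 0.05, 0 called by edgeR and 0 and 1 towards the heavy and light side under quantile normalization. Over all genes edgeR called 7 of 15043 and quantile normalization 96 of 15172, and the share past an unadjusted p of 0.05 was not counted.

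In 2-cell embryos 4 genes were heavy (background 1.52%) and 1 light (background 2.02%). Eif1a had 72.0, 22.7 and 32.3 CPM on the heavy and 0.0243, 0.899 and 0.0855 CPM on the light side (difference 4.91, SE 1.09, adjusted p = 0.00674 by limma), but 18 of its 30 fraction libraries were at 0 and most of its reads in gradient A lay in fraction 10, at 347 CPM. Eif3j2 had 21, 2.18 and 52.3 CPM against 0, 0.115 and 0.142 CPM (difference 3.84, SE 1.14, adjusted p = 0.0485 by limma), Eif5 667, 339 and 636 against 64.5, 62.0 and 50.4 CPM, and Eif5a 1189, 1784 and 1006 against 331, 303 and 246 CPM. The light gene was Eif4g3, with 15.7, 0.201 and 2.01 CPM against 51.9, 33.9 and 177 CPM (difference -4.14, SE 1.14, adjusted p = 0.0303 by limma). Each of the 5 calls was lost without 1 or more of the gradients, at adjusted p-values from 0.058 to 0.344. Under the gradient block Eif3j2 (adjusted p = 0.0566) and Eif4g3 (adjusted p = 0.0594) were lost and Eif1 and Eif4g2 gained. Quantile normalization called 5 heavy and 0 light, edgeR 12 heavy and 2 light, and analysis without weights 15 in all. Over all genes edgeR called 2624 of 15043, analysis without weights 2758 of 15172 and quantile normalization 470 of 15172. From the zygote, the change of the difference was called for 3 members (background 1.57%): Eif1a 4.70 (adjusted p = 0.0297), Eif5a 1.93 (adjusted p = 0.0405) and Eif4g3 -4.60 (adjusted p = 0.0453, and 0.0818 with the block). In zygotes Eif1a had 26 of 30 fraction libraries at 0. Leaving out single gradients ended each of these 3 calls. Quantile normalization called 2 towards the heavy and 0 towards the light side, and edgeR 3 and 0. Over all genes they called 211 of 15172 and 988 of 15043.

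In 4-cell embryos no member was called heavy (background 0.125%) or light (background 0.692%) by limma, with 10 of 46 past an unadjusted p of 0.05. edgeR, in which all stages share 1 spread and deep fractions weigh more, called 5 heavy and 7 light. Analysis without weights called 12 in all, and the block called Eif4b light (adjusted p = 0.0272). Over all genes edgeR called 2374 of 15043 here and analysis without weights 2468 of 15172. For changes from the 2-cell embryo edgeR called 2492 of 15043 and quantile normalization 20 of 15172. The change from the 2-cell embryo was called for 0 members (background 0.303%), with 13 past an unadjusted p of 0.05, 15 called by edgeR (5 towards the heavy and 10 towards the light side), 0 and 1 under quantile normalization, and Eif1 called with the block (adjusted p = 0.0277). In 8-cell embryos 2 were heavy (background 1.08%) and 1 light (background 4.03%). Eif5a had 10473, 9021 and 8380 CPM against 3624, 2705 and 3934 CPM (difference 1.45, SE 0.38, adjusted p = 0.0156 by limma), Eif4h 352, 859 and 760 against 72.0, 79.0 and 250 CPM (difference 2.43, SE 0.72, adjusted p = 0.0366), and Eif4g3 2.73, 0.330 and 2.02 against 68.8, 23.4 and 20.1 CPM (difference -3.74, SE 0.92, adjusted p = 0.00917). Each call was lost without 1 or more gradients, at adjusted p-values from 0.0615 to 0.355, and the block added Eif4e and Eif5 on the heavy side. Quantile normalization called 1 heavy and 1 light, edgeR 1 and 0, and analysis without weights 7 in all. Over all genes they called 584 of 15172, 651 of 15043 and 1373 of 15172. The change from the 4-cell embryo was called for 0 members (background 0.033%), with 5 past an unadjusted p of 0.05 and 3 called by edgeR (2 towards the heavy and 1 towards the light side). Over all genes edgeR called 1144 of 15043 for that change. The share of all genes past an unadjusted p of 0.05 was not counted for any of these comparisons.

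In morulae 13 of the 46 genes were heavy (28.3%, background 5.06%) and 1 was light (background 6.29%). This was the highest count of heavy members of the 8 stages by limma with stage weights, but not by edgeR, which called 1 heavy here and 12 in 2-cell embryos. Over all 15043 genes, on either side, edgeR called 133 in morulae and 2624 in 2-cell embryos. The heavy genes were Eif3m, Eif3j1, Eif2b3, Eif3e, Eif2s3y, Eif4a1, Eif5, Eif3k, Eif6, Eif4a3, Eif2b2, Eif2b1 and Eif5a, and the median difference of the 46 genes was 0.76 beside 0.0025 over all genes. Eif3m had 159, 95.6 and 103 CPM on the heavy and 13.7, 12.4 and 16.8 CPM on the light side (difference 2.95, SE 0.67, adjusted p = 0.00186 by limma). Eif3j1 had 6.51, 10.3 and 19.9 CPM against 1.65, 1.80 and 2.70 CPM (difference 2.00, SE 0.59, adjusted p = 0.0181 by limma), and was lost without gradient B (adjusted p = 0.163) or C (adjusted p = 0.206). The light gene, Eif1, had 424, 579 and 741 CPM against 832, 1552 and 1561 CPM (difference -1.16, SE 0.25, adjusted p = 0.00108 by limma), and its adjusted p was 0.0646 without gradient B. The call of Eif6 (difference 1.54) held under all 12 alternatives. Those of Eif2b1, Eif2b2, Eif2b3, Eif2s3y, Eif3e, Eif5 and Eif5a were lost without 1 or more single gradients, which left 7 calls in all without gradient B and 8 without gradient C. The block added Eif2s1 and Eif4h on the heavy and Eif3c on the light side. Quantile normalization called 10 heavy and 3 light, and analysis without weights 7 in all, against 15 in 2-cell embryos. Over all 15172 genes, analysis without weights called 882 in morulae and 2758 in 2-cell embryos. Quantile normalization called 1560 of these genes in morulae. From the 8-cell embryo, the change was called for Eif4g3 alone (background 0.343%), at 5.28 (SE 1.11, adjusted p = 0.0206 by limma), and was lost without any 1 of the 8-cell gradients (adjusted p = 0.0547 to 0.094) or morula gradient C (0.0916).

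In blastocysts 8 were heavy (background 7.24%) and 4 light (background 10.1%). Eif4a3, an exon junction helicase, had 891, 1223 and 974 CPM on the heavy and 220, 277 and 280 CPM on the light side (difference 1.98, SE 0.21, adjusted p = 1.20e-09 by limma). Eif4a1 had 2139, 3067 and 2501 CPM against 668, 917 and 829 CPM (difference 1.67, SE 0.24, adjusted p = 1.08e-06 by limma). The other heavy genes were Eif4h, Eif2b2, Eif6, Eif3k, Eif3i and Eif5a. The light genes were Eif4b, with 28.9, 29.3 and 41.4 CPM against 82.1, 89.2 and 103 CPM (difference -1.45, SE 0.30, adjusted p = 3.69e-04 by limma), Eif5b, with 3.59, 3.22 and 5.60 against 16.3, 11.2 and 10.395 CPM (difference -1.41, SE 0.42, adjusted p = 0.0116 by limma), Eif3c and Eif1. Eif5b, the most heavy member in MII oocytes, was thus light in blastocysts, although its adjusted p was 0.172 without gradient A and 0.0739 without gradient B. Eif4a1 and Eif6 held under all 12 alternatives, edgeR called 2 genes, both heavy, and 5 were called without weights. Over all genes edgeR called 77 of 15043 and analysis without weights 416 of 15172. Without single gradients the differences of Eif1, Eif3i and Eif5a went to -0.96, 0.99 and 0.94, just under 1. The change from the morula was called for 0 members (background 0.475%), with 10 past an unadjusted p of 0.05 and 0 called by edgeR. Over all genes edgeR called 0 of 15043, and the share past an unadjusted p of 0.05 was not counted. The block called 3, Eif2s3y, Eif4e and Eif5, towards the light side.

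**Figure D5:**
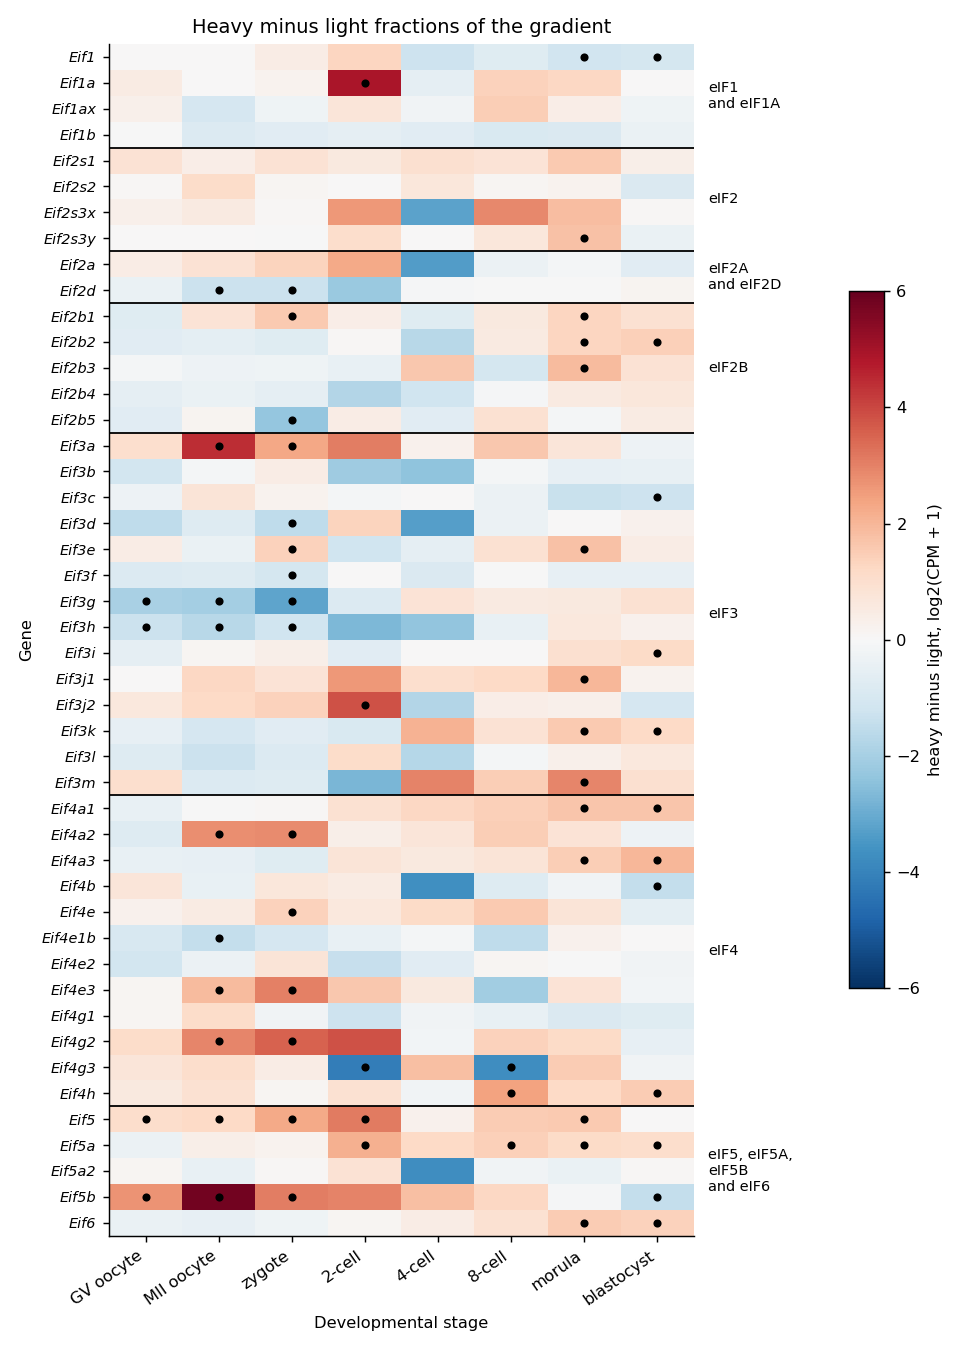
Heavy minus light difference of each of the 46 genes (rows, grouped by complex) at the 8 stages (columns), on the log2(CPM + 1) scale over 3 gradients per stage, red for heavy and blue for light, with a dot where the difference was called. The morula column holds 13 heavy and 1 light dots, and the 4-cell column none.

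Transcript length went with position, and in opposite directions at the ends of the series. Across the 46 genes the Spearman correlation of the heavy-light difference with log transcript length was 0.55 in GV oocytes, 0.58 in MII oocytes, 0.47 in zygotes, -0.15 in morulae and -0.49 in blastocysts. The Pearson values were 0.59, 0.59, 0.49, -0.14 and -0.50. Over 13270 genes with a length they were 0.19, 0.21, 0.19, -0.20 and -0.22 (Spearman). At the 2-cell, 4-cell and 8-cell stages the Spearman values of the 46 genes were 0.36, -0.08 and 0.17. Those of the 13270 genes were -0.03, -0.14 and -0.15, so the signs differed at the 2-cell and 8-cell stages. The genes share libraries, so these are descriptions. In MII oocytes the 6 heavy genes had a median transcript of 4.59 kb and the 4 light ones of 1.198 kb, whereas in blastocysts the 8 heavy genes had 1.5045 kb and the 4 light ones 3.62 kb. A longer coding sequence can hold more ribosomes, and RNA integrity also depends on length; the part of either was not tested.

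The 3′ ends were searched for TTTTAT or TTTTAAT, forms of the cytoplasmic polyadenylation element through which stored oocyte transcripts gain poly(A) at maturation, in the last 100 bases of GENCODE M21 transcripts with a poly(A) signal in their last 40. Of 29 members with such an end 5 held it (17.2%), against 19.7% of 9328 genes. It was present in 1 of the 3 heavy MII members with a usable end, Eif4e3, and in 33.2% of all heavy genes, 18.7% of genes not called and 9.36% of light genes. Among members, it was also in Eif2d, which was light, and in Eif4e2, Eif1a and Eif3j2, which were not called. The site of Eif4e3 is shown because that gene both rose and was heavy in MII oocytes, with the element in capitals. It begins 98 bases before the 3′ end.
Eif4e3, chr6:99625206-99625234, minus strand, GRCm38: aaTTTTATttttgaactttatttaaagca

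Genes that act on these factors were counted from a list of 29, of which 28 were in the table. From the GV to the MII oocyte 4 rose (background 9.11%; Eif2ak3, Eif2ak4, Ppp1r15a and Ppp1r15b, the last 2 being phosphatase subunits that reverse eIF2 alpha phosphorylation) and 7 fell (background 25.3%; Denr, Mcts1, Mcts2, Pabpc1l, Paip2, Paip2b and Pdcd4). From the zygote to the 2-cell embryo 9 rose (background 25.2%) and 6 fell (background 8.71%), and from the 2-cell to the 4-cell embryo 13 rose (background 31.8%) and 7 fell (background 32.9%), with a median change of 0.83 beside 2.35 for the 46 factors. Eif4enif1, whose protein carries eIF4E and is known from oocyte storage complexes, fell at that step together with Cpeb1, the protein that binds the cytoplasmic polyadenylation element. In MII oocytes 2 of the 28 were heavy (background 8.86%; Ddx3x and Gigyf2) and 0 light (background 6.33%), and in blastocysts 0 were heavy (background 7.24%) and 7 light (background 10.1%), Ddx3x and Gigyf2 among them. Several of these counts, such as 7 of 28 lower at maturation and 2 of 28 heavy in MII oocytes, lie near the share over all genes.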

How the data were processed

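The authors deposited 1 table of CPM values per gene symbol and library; per the submitters' processing notes, Trim Galore 0.6.7, FastQC, HISAT2 2.2.1, featureCounts 2.0.1, edgeR and the build GRCm39 were used, in roles not given in the sources used here. Of its columns, 9 sum to more than CPM can, because the table repeats identical rows, and are recorded as signal; with repeats dropped all sums were within the CPM total; the authors had scaled these deposited signal values to the library total too, and they were used as CPM. Values were whole multiples of 1 read in 100% of cases within 0.05 reads, which recovered the read counts; 1 library (2-cell fraction 7, gradient B), with a step near the rounding, was left out of count models. Rows identical in all 272 libraries were kept once (15771 genes); none was a member. No molecular identifiers were counted, and floors of 3 reads cover counting error only.

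limma 3.58.1 (R 4.3.3) with a mean-variance trend was fitted to log2(CPM + 1), which understates the change of low genes, for genes with CPM of at least 1 in as many samples as a group holds: 32 transcriptomes for levels, and 48 side means (24 gradients) with weights per stage for gradients. A gene was called at a Benjamini-Hochberg adjusted p under 0.05 over all genes and a change of at least 1. The fits were tested on simulated data. edgeR 4.0.16 (quasi-likelihood) was an alternative. For sides it was given the summed reads of a side's fractions, so its differences are not those of the mean CPM. Libraries that share a letter within a stage were taken as 1 gradient; the deviations of its heavy and light sides correlated at 0.0078 to 0.25, and the fit with the gradient as a block was run as an alternative. Columns of 2-cell transcriptomes bear the letters E to H, unlike their labels (A to D), and are named here by column. Named with every sample's value were the 2 genes with the largest called change in each direction of a comparison, and the paralogs; values of other genes named were added after they were seen. The members and lists were chosen with earlier results of these data known. Sequences and lengths came from RefSeq (GRCm38.p6) and GENCODE M21 (GRCm38), another build than the counts, so their coordinates were joined to values by gene symbol only.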

Additional observations from a re-analysis of the deposited data

Results flagged for a closer look

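In 22 of the 365 sets of 4 transcriptome libraries of a gene at a stage that could be tested, 1 library stood apart from the other three by Dixon's ratio at its 95% critical value, and chance alone flags about 1 set in 20. Of the zygote libraries, those that stood apart were library D for Eif2b3 (63.9 CPM), library B for Eif2d (16.55 CPM), library C for Eif4e (780.3 CPM) and library D for Eif4h (2.778 CPM). Of the 4-cell libraries, those that stood apart were library D for Eif2b4 (64.6 CPM), library D for Eif3l (394.7 CPM) and library B for Eif3m (517.2 CPM). Of the morula libraries, those that stood apart were library A for Eif3e (212.5 CPM) and library B for Eif5a (2253 CPM). Of the 2-cell libraries, those that stood apart were library E for Eif3i (477.7 CPM), library E for Eif4a1 (507.3 CPM), library E for Eif4e1b (376.8 CPM), library G for Eif4g3 (15.82 CPM) and library E for Eif5a (1563 CPM). Of the 8-cell libraries, those that stood apart were library D for Eif3i (448.6 CPM), library B for Eif4g2 (857.2 CPM) and library D for Eif5a2 (10.33 CPM). Of the blastocyst libraries, those that stood apart were library D for Eif3l (466 CPM), library A for Eif4e3 (0.8999 CPM), library D for Eif4g1 (425 CPM) and library C for Eif4g2 (289.6 CPM). Of the GV oocyte libraries, those that stood apart were library C for Eif4e1b (76.96 CPM). The 2-cell library E is the one named for 4 genes (Eif3i, Eif4a1, Eif4e1b and Eif5a), each time as the highest.

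The heavy-light difference of 6 genes differed between consecutive stages by the test of the difference itself (limma, adjusted p under 0.05). From the GV to the MII oocyte it changed by 3.524 for Eif4a2, 3.396 for Eif3a and 3.081 for Eif5b, from the zygote to the 2-cell embryo by -4.598 for Eif4g3, 4.697 for Eif1a and 1.932 for Eif5a, and from the 8-cell embryo to the morula by 5.278 for Eif4g3. Each rested on 3 gradients per stage, and each was lost when 1 or more single gradients were left out.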

How the results depend on the processing

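Counts of called genes are given with the count as reported after "against". Shares of all genes as reported stand with the results above. Counts over all genes follow for each setting, except where single libraries or gradients were left out, for which none were taken. With only the compared stages in the fit the count was 1 against 2 for levels from 4-cell to 8-cell, 2 against 4 for sides in GV oocyte, 3 against 5 for sides in 2-cell, 0 against 3 for change of side from zygote to 2-cell and 0 against 1 for change of side from 8-cell to morula. All genes gave, in the same order, 147 of 11174, 285 of 11644, 188 of 9889, 19 of 12633 and 2 of 12339. With quantile normalization the count was 0 against 2 for levels from 4-cell to 8-cell, 7 against 4 for sides in GV oocyte, 5 against 3 for change of side from GV oocyte to MII oocyte, 1 against 0 for change of side from MII oocyte to zygote and 1 against 0 for change of side from 2-cell to 4-cell. In that order it called 269 of all 14642 genes for levels, and 823, 382, 96 and 20 of 15172 for the others. With a pseudocount of 0.1 CPM the count was 2 against 1 for levels from 8-cell to morula and 1 against 3 for change of side from zygote to 2-cell. Counts over all genes were 2501 of 14642 and 187 of 15172. With edgeR on recovered reads the count was 2 against 1 for levels from 8-cell to morula, 0 against 4 for sides in GV oocyte, 3 against 10 for sides in MII oocyte, 3 against 15 for sides in zygote, 14 against 5 for sides in 2-cell, 12 against 0 for sides in 4-cell, 1 against 3 for sides in 8-cell, 1 against 14 for sides in morula, 2 against 12 for sides in blastocyst, 0 against 3 for change of side from GV oocyte to MII oocyte, 15 against 0 for change of side from 2-cell to 4-cell and 3 against 0 for change of side from 4-cell to 8-cell. Over all genes edgeR called 2369 of 14642 for that level. Of 15043 genes it called, in the same order, 8, 165, 114, 2624, 2374, 651, 133 and 77 for sides. It called 6, 2492 and 1144 for the changes of side. Without stage weights the count was 0 against 4 for sides in GV oocyte, 4 against 10 for sides in MII oocyte, 4 against 15 for sides in zygote, 15 against 5 for sides in 2-cell, 12 against 0 for sides in 4-cell, 7 against 3 for sides in 8-cell, 7 against 14 for sides in morula, 5 against 12 for sides in blastocyst, 0 against 3 for change of side from GV oocyte to MII oocyte, 13 against 0 for change of side from 2-cell to 4-cell and 3 against 0 for change of side from 4-cell to 8-cell. Of all 15172 genes it was, in the same order, 11, 490, 456, 2758, 2468, 1373, 882 and 416 for sides. For the changes of side it was 28, 1781 and 374. With fractions 8 to 10 against 1 to 3 the count was 16 against 10 for sides in MII oocyte, 1 against 0 for sides in 4-cell, 5 against 3 for sides in 8-cell, 1 against 3 for change of side from GV oocyte to MII oocyte, 3 against 0 for change of side from 2-cell to 4-cell and 1 against 0 for change of side from 4-cell to 8-cell. These were 3353, 474, 1181, 291, 308 and 39 of 15210 over all genes. Without the filter on low values the count was 1 against 0 for sides in 4-cell, beside 177 of 15771 over all genes. Without fraction 1 on the light side (chosen after seeing the data) the count was 10 against 4 for sides in GV oocyte, 8 against 5 for sides in 2-cell, 0 against 3 for sides in 8-cell, 1 against 3 for change of side from GV oocyte to MII oocyte, 0 against 3 for change of side from zygote to 2-cell and 0 against 1 for change of side from 8-cell to morula. Of 15047 genes in all, 1854, 558, 254, 223, 188 and 22 were called in that order. With the gradient letter as a replicate block the count was 1 against 0 for sides in 4-cell, 5 against 3 for sides in 8-cell, 1 against 0 for change of side from 2-cell to 4-cell and 3 against 0 for change of side from morula to blastocyst. The block gave 112, 880, 42 and 120 of 15172 over all genes. With single libraries or gradients left out in turn, the count ranged from 1 to 3 against 2 for levels from 4-cell to 8-cell, from 1 to 3 against 1 for levels from 8-cell to morula, from 1 to 3 against 4 for sides in GV oocyte, from 2 to 2 against 5 for sides in 2-cell, from 0 to 1 against 3 for sides in 8-cell, from 7 to 14 against 14 for sides in morula, from 0 to 3 against 3 for change of side from GV oocyte to MII oocyte, from 0 to 1 against 3 for change of side from zygote to 2-cell, from 0 to 1 against 1 for change of side from 8-cell to morula and from 0 to 1 against 0 for change of side from morula to blastocyst. 

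The gradient block changed no other count by over 1.5 times, and the genes whose call it changed and that are not named beside their results were Eif3d (light, gained) in GV oocytes and Eif2s2 and Eif3j1 (heavy, gained) in MII oocytes. Transcriptome libraries of different stages share only a letter, with correlations of their deviations from -0.18 to 0.17 for the same letter, and the replicate block gave 27, 9, 2, 1 and 11 called genes in the transitions other than those with 2-cell libraries, the counts without it. For those with 2-cell libraries no paired analysis was possible because their columns carry the letters E to H.

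No called result of a gene changed direction under any alternative run. Of 110 called changes of level 85 were called under all alternatives, of 63 called sides 9 and of 7 called changes of side 0. Sides in 2-cell and 4-cell embryos are the least precise, with shallow fractions and many at 0 reads.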
